A study of Brassica carinata x Brassica rapa with 9 samples.

Results

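The genes described here are 6 copies of the 5 enzymes that make and modify the fatty acyl units of sporopollenin, the polymer of the outer pollen wall. They were chosen by identifier from the deposited expression table of a synthetic Brassica allohexaploid, and are 6 of its 100804 genes: CYP703A2 (Bol040704), CYP704B1 (Bra004386), ACOS5 (Bra036646), LAP5 (Bra017681 and Bol034656) and LAP6 (Bra017147). The prefix of an identifier gives the subgenome, so that Bra genes belong to the A-genome, BniB genes to the B-genome and Bol genes to the C-genome. The study had named these copies among genes higher in Anther in the same libraries, so their level in Anther against the other tissues is a description and not independent evidence. Ovule was not compared with Leaf in that choice, but the choice required both of these levels to lie below Anther.

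The study used RNA-Seq to look for genes of male and female gamete development. It had 9 libraries, 3 from each of 3 tissues: Anther (anthers between meiosis and mature pollen), Ovule (ovules between meiosis and the mature embryo sac) and Leaf (young leaves, the vegetative control). All came from plants of genotype AABBCC, made by crossing Brassica carinata and Brassica rapa and grown in a greenhouse without treatment, and the sources used here differ on which species was the mother. The study calls the 3 libraries of a tissue biological replicates, but nothing says whether they came from separate plants, so the p-values measure only the spread between these libraries.

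In Arabidopsis thaliana these enzymes act in the tapetum, the layer of the anther that feeds the developing microspores. ACOS5 is an acyl-CoA synthetase that activates fatty acids, and CYP703A2 and CYP704B1 are cytochrome P450 enzymes that hydroxylate fatty acids within the chain and at its end. LAP5 and LAP6, also called PKSB and PKSA, are polyketide synthases that condense the activated acyl units, after which the reductases TKPR1 and TKPR2 act on the products. MS2 reduces fatty acyl groups to alcohols, ABCG26 exports wall precursors, and the transcription factors TDF1, AMS and MYB80 regulate tapetum genes.

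RT-qPCR was run as well for the LAP5 copy Bol034656, and its primers are shown because they are the designed sequences by which this copy was followed in the laboratory. Each has 20 bases with a GC content of 55.0%. The sequences of the other copies were not used here, so whether the primers also match another of the LAP5 copies was not tested.
Bol034656 (LAP5) forward primer: gacgctgtaaccgaaatggc
Bol034656 (LAP5) reverse primer: agtacaaatcgccaccaggg

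Levels are given in FPKM, the fragments per kilobase of gene length and scaled to the library total, as deposited. Read counts were recovered from the steps between FPKM values, and the library totals that these steps give were 15106480 to 15557379 in Anther, 15126669 to 15530329 in Ovule and 8682100 to 10161664 in Leaf. The paper reports a lower mapping rate for the Leaf libraries than for the others, and its part in the Leaf values was not tested. Gene lists of 2 tissues were summed as a description. The 15 listed copies of the tapetum regulators TDF1, AMS and MYB80 summed to 1592 to 1874 FPKM in Anther, 0.914 to 9.13 FPKM in Ovule and 0.431 to 0.869 FPKM in Leaf. The 18 copies of an ovule gene list summed to 55.5 to 66.2 FPKM in Anther, 173 to 192 FPKM in Ovule and 17.6 to 22.9 FPKM in Leaf. No leaf marker could be matched to an identifier. Both lists were named by the study as higher in their own tissue in these libraries, so their sums could not go against the labels. None of the tissue labels was checked by independent markers.

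All 6 genes were abundant in Anther, near the detection limit or low in Ovule, and absent or at a few reads in Leaf. The hydroxylase CYP703A2 copy Bol040704 had 497, 75.9 and 476 FPKM in Anther libraries 1, 2 and 3, 0, 1.55 and 7.22 FPKM in the Ovule libraries, and no read in any Leaf library. The second hydroxylase, the CYP704B1 copy Bra004386, had 438, 127 and 495 FPKM in Anther, 0, 0.955 and 4.07 FPKM in Ovule, and no read in Leaf. In both genes the lowest Anther library lay above the highest Ovule library, and Anther library 2 lay far below the other Anther libraries. The Leaf counts of 0 allow up to 0.191 to 0.223 FPKM for Bol040704 and 0.189 to 0.221 FPKM for Bra004386 at 3 reads per library, and such limits cover counting error only. In whole tissues, fewer cells of a type and less RNA per cell cannot be told apart.

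The acyl-CoA synthetase ACOS5 copy Bra036646 had 302, 257 and 346 FPKM in the Anther libraries. Its Ovule libraries had 0.0435, 0.204 and 2.65 FPKM, from 3, 14 and 178 reads, and its Leaf libraries had 0.0222, 0.0259 and 0 FPKM, from 1, 1 and 0 reads. The 3 tissues did not overlap, although the gap between Ovule library 1 and Leaf library 2 rested on 3 reads against 1.

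The polyketide synthase LAP5 was represented by a copy of the A-genome and a copy of the C-genome. Bra017681 had 378, 409 and 474 FPKM in Anther and 0, 0 and 2.58 FPKM in Ovule, and Bol034656 had 409, 419 and 381 FPKM in Anther and 0, 0.0550 and 1.01 FPKM in Ovule. Neither copy had a read in Leaf, and 3 reads correspond to 0.250 to 0.293 FPKM there. In Ovule, all 46 reads of Bra017681 and 18 of the 19 reads of Bol034656 were in library 3.

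The LAP6 copy Bra017147 had 205, 86.8 and 241 FPKM in Anther, 2.35, 2.22 and 3.52 FPKM in Ovule, and 0.0367, 0.129 and 0.0777 FPKM in Leaf. It had 92 or more reads in each Ovule library and 1 to 3 reads in each Leaf library, and the tissues did not overlap. It was the only gene of the 6 with more than 3 reads in Ovule library 1.

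**Figure D1:**
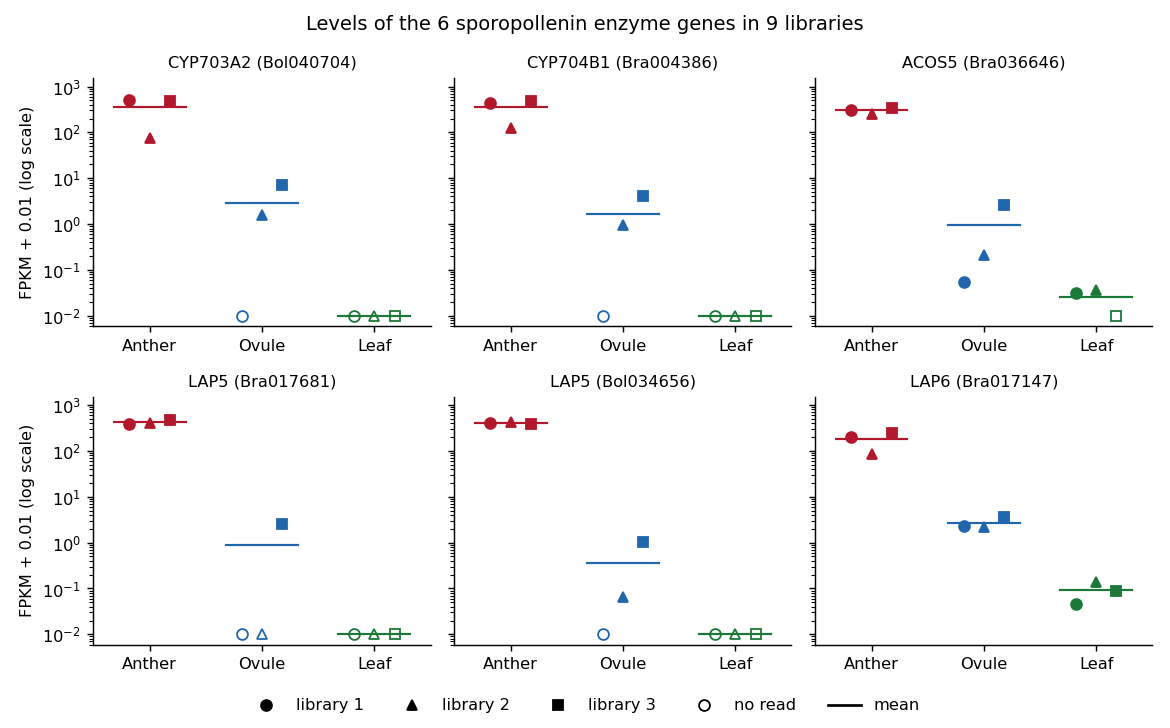
FPKM plus 0.01 on a log axis for the 6 genes in the 3 libraries of Anther, Ovule and Leaf, with markers for the library number, open markers for libraries without a read and lines for the tissue means. The Anther libraries lie between 75.9 and 497 FPKM, while the highest Ovule value is 7.22 FPKM and the highest Leaf value is 0.129 FPKM.

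The order of the mean levels in Anther was Bra017681 (LAP5) with 420.1 ± 49.1 FPKM, Bol034656 (LAP5) with 403 ± 19.5, Bra004386 (CYP704B1) with 353 ± 198, Bol040704 (CYP703A2) with 349.6 ± 237, Bra036646 (ACOS5) with 302 ± 44.9 and Bra017147 (LAP6) with 178 ± 80.6 FPKM (SD, n = 3). Neighbours in this order overlapped in their libraries, except Bra036646 and Bra017147. The order was another in Ovule, where Bol040704 had 2.92 ± 3.80 FPKM, Bra017147 2.70 ± 0.716, Bra004386 1.67 ± 2.13, Bra036646 0.966 ± 1.46, Bra017681 0.860 ± 1.49 and Bol034656 0.355 ± 0.568 FPKM (SD, n = 3). All neighbours in the Ovule order overlapped, and in 5 of the 6 genes the SD exceeded the mean.

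These levels are per length, and the length that the FPKM steps give differs between copies of the same enzyme for 2 of the genes. Bra036646 has 4440 bases where the other ACOS5 copy, BniB001185, has 1626 bases, and Bra017147 has 2685 bases where the LAP6 copies BniB016901 and Bol025267 have 2640 and 1182 bases. With the length of the shortest copy of the same enzyme, Bra036646 would have had 824 FPKM in Anther and 2.64 FPKM in Ovule, and Bra017147 403 FPKM in Anther and 6.13 FPKM in Ovule. The order between genes therefore depends on the gene models. A change of length leaves the ratio between tissues of the same gene as it is, but whether the longer models also take in reads of a neighbouring gene, which could change that ratio, was not tested.

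All 6 genes were higher in Anther than in Ovule, which their choice had fixed, by limma on log2(FPKM + 0.1). A gene was called where it differed 2-fold or more and its p, adjusted over all genes by the Benjamini-Hochberg method, did not exceed 0.05. Over all 75038 genes tested, 14.3% were higher in Anther and 14.3% lower in this comparison. The ratio of the mean FPKM was 119.6 for Bol040704, 211 for Bra004386, 312 for Bra036646, 489 for Bra017681, 1136 for Bol034656 and 65.9 for Bra017147. The log2 fold change was smallest for Bra017147 (5.89, SE 0.38) and largest for Bol034656 (10.61, SE 0.72), and the adjusted p of limma lay between 3.00e-06 and 0.00105. With single libraries left out, the log2 fold change ranged from 9.92 to 11.66 for Bol034656 and from 9.66 to 12.03 for Bra017681. These ranges overlapped, so which of the LAP5 copies had the larger fold change is uncertain. The SE pools the spread within all 3 tissues and was largest for Bol040704 (7.94, SE 1.33). Its libraries ranged from 75.9 to 497 FPKM in Anther and from 0 to 7.22 FPKM in Ovule. A large SE did not need a wide spread in Anther, since Bra017681 had an SE of 1.051 with a coefficient of variation (SD over mean) of 0.117 there.

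Relative to Leaf, too, all 6 genes were higher in Anther, while 38.4% of the genes tested were higher and 16.9% lower. For the 4 genes without a read in Leaf the ratio of means was at least 1703-fold for Bol040704, 1733-fold for Bra004386, 1558-fold for Bra017681 and 1495-fold for Bol034656, with the Leaf level set to 3 reads in each library. For Bra036646 the ratio was 18819, with a counting interval of 5210 to 155392 from 2 Leaf reads (exact Poisson, 95%). For Bra017147 it was 2193, with an interval of 1007 to 5975 from 6 Leaf reads. Both of these Leaf means lay below the level of 3 reads per library (0.0716 and 0.118 FPKM), so the 2 ratios cannot be ranked against the lower bounds of the other genes. The log2 fold changes of limma were 9.84 to 12.03 with adjusted p between 5.9e-08 and 4.4e-05. All of them depend on the pseudocount of 0.1, which exceeded the Leaf mean of each of the 6 genes.

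Between Ovule and Leaf, 3 of the 6 genes were higher in Ovule, none was lower, and 3 did not pass the test, while 36.8% of all genes tested were higher in Ovule and 14.8% lower. The share among the 6 genes was thus near that of all genes. A gene was tested if it had at least 0.5 FPKM in any 3 libraries. All of the 6 genes but Bra017147 met this only with their Anther libraries, so their calls are a description. The clearest of them was the LAP6 copy Bra017147, with 2.70 FPKM in Ovule and 0.0810 FPKM in Leaf. Its ratio of means was 33.3, with a counting interval of 15.3 to 90.7, and its log2 fold change was 3.95 (SE 0.38, limma adjusted p = 1.3e-05). It passed the test under every alternative that was run, with adjusted p from 5.7e-06 to 0.03.

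The hydroxylases Bol040704 and Bra004386 also passed, but closely. Their log2 fold changes were 3.41 (SE 1.33, limma adjusted p = 0.044) and 2.93 (SE 1.12, limma adjusted p = 0.040), and the levels in Ovule were at least 14.2 and 8.22 times the Leaf limit of 3 reads per library. Without Ovule library 3 the fold changes of Bol040704 and Bra004386 were 2.02 (limma adjusted p = 0.15) and 1.70 (limma adjusted p = 0.14). Both calls were also lost without Ovule library 2, without Anther library 1 or 3, and without each of the Leaf libraries. Only Bra017147 was called then. Without Ovule library 1, 5 of the 6 genes were called, all but Bra017681.

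The remaining 3 genes had log2 fold changes of 2.096 (SE 0.86) for Bra036646, 1.58 (SE 1.051) for Bra017681 and 1.37 (SE 0.72) for Bol034656, with limma adjusted p of 0.053, 0.21 and 0.12. The median log2 fold change of Ovule over Leaf was 2.51 for the 6 genes and 0.66 for all genes tested. That overall shift depends on the scaling of the libraries, since median-of-ratios factors lower it by 0.657. With those factors Bra017147 was the only gene of the 6 called, and 15757 genes were higher and 16125 lower in Ovule, against 27612 higher and 11071 lower in FPKM as deposited.

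Within Anther the 6 genes fell into a varying set and an even set. The highest library exceeded the lowest 6.54-fold in Bol040704 (CYP703A2), 3.89-fold in Bra004386 (CYP704B1) and 2.77-fold in Bra017147 (LAP6). For the others this ratio was 1.35 in Bra036646 (ACOS5), 1.26 in Bra017681 and 1.098 in Bol034656 (both LAP5), while its median over all genes tested was 1.47. Its median was 1.86 over the 342 genes higher in Anther than in both other tissues and with a mean of at least 100 FPKM there. The coefficient of variation, the SD over the mean, was 0.679, 0.560 and 0.454 in the varying set, and 0.149, 0.117 and 0.0484 in the even set.

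Anther library 2 was the lowest for Bol040704, Bra004386, Bra036646 and Bra017147. Library 1 was the lowest for Bra017681, and library 3 was the lowest for Bol034656, in which library 2 was the highest. Library 1 was the highest for Bol040704, and library 3 for the other 4. The counts behind these orders were large, with 1776 reads for Bol040704 in library 2 and 3 Anther libraries whose exact 95% Poisson intervals did not overlap in 5 of the 6 genes. In Bol034656 the intervals of libraries 1 and 2 overlapped, at 400 to 419 and 409 to 428 FPKM. The libraries of a tissue have no order of their own, so these orders describe the libraries and no trend.

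**Figure D2:**
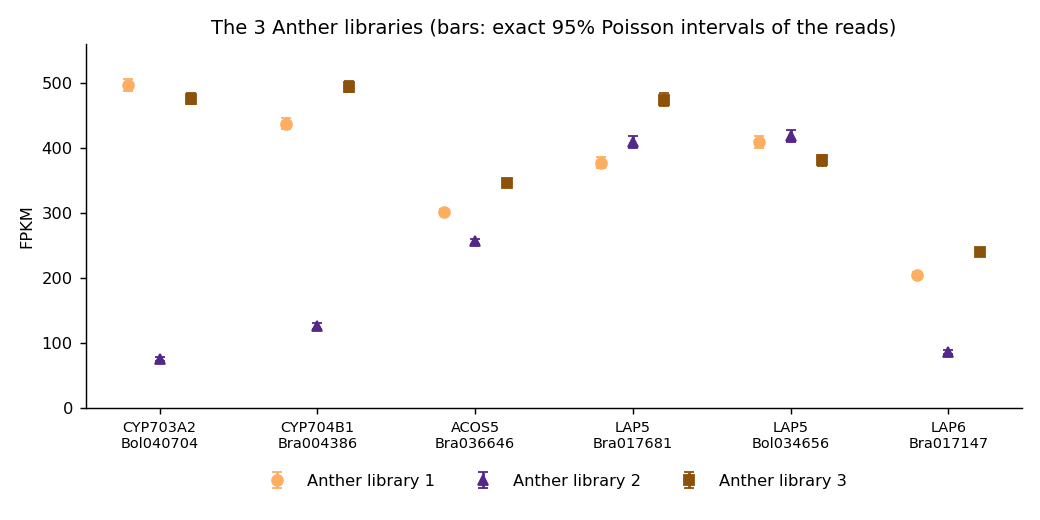
FPKM of the 6 genes in Anther libraries 1, 2 and 3 on a linear axis, with exact 95% Poisson intervals of the reads as bars. Library 2 lies at 75.9, 127 and 86.8 FPKM for CYP703A2, CYP704B1 and LAP6, well below libraries 1 and 3, and at 257, 409 and 419 FPKM for ACOS5 and both LAP5 copies.

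Relative to the mean of libraries 1 and 3, Anther library 2 held 0.156 of the level of Bol040704, 0.273 of that of Bra004386 and 0.389 of that of Bra017147. The corresponding values were 0.791 for Bra036646, 0.960 for Bra017681 and 1.06 for Bol034656. On the log2 scale these were -2.68, -1.87, -1.36, -0.34, -0.06 and 0.08. Among all genes tested, 1.69% had a lower log2 value than Bol040704, 3.62% a lower one than Bra004386 and 6.18% a lower one than Bra017147. Among the 342 genes that were higher in Anther than in both other tissues and had a mean of at least 100 FPKM there, the corresponding shares were 16.4%, 23.1% and 28.1%, and the middle 90% of these abundant genes spanned -4.17 to 0.94. Low values in library 2 were thus frequent among abundant Anther genes, and those of the 6 genes lay within their range.

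The other genes of the pathway were taken as the study lists them. Of the 21 listed copies of the 5 enzymes, 18 were lowest in Anther library 2 (85.7%), as were 14 of the 15 copies of TKPR1, TKPR2, MS2 and ABCG26 (93.3%). Library 2 was the lowest for 31.7% of all genes tested and for 46.8% of the 342 abundant Anther genes. The 342 genes include the genes described here and most of these listed copies, so they are not a separate set. The listed copies include several of each enzyme, which may share reads, so they are not independent genes.

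Summed over their copies, all 5 enzymes were lowest in Anther library 2, LAP5 included, although neither of its copies described above was. The 5 copies of CYP703A2 had 1173, 219 and 1207 FPKM in Anther libraries 1, 2 and 3, the 3 copies of CYP704B1 had 728, 229.9 and 832 FPKM, and the 3 copies of LAP6 had 688, 301 and 945 FPKM. The 2 copies of ACOS5 had 915, 774 and 967 FPKM and the 8 copies of LAP5 had 2014, 1774 and 2324 FPKM. All copies of CYP703A2, CYP704B1 and LAP6 were between 2.37-fold and 11.2-fold apart in the Anther libraries, and all copies of ACOS5 and LAP5 at most 1.93-fold apart.

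Among the genes that act after or beside these enzymes, the reductase MS2 had the widest spread, with 2962, 471 and 3267 FPKM over its 6 copies. The transporter ABCG26 had 1334, 463 and 1103 FPKM over 3 copies, TKPR1 had 2153, 1632 and 2299 FPKM over 2 copies, and TKPR2 had 916, 836 and 1181 FPKM over 4 copies. MS2 and ABCG26 thus lay with the varying set, and TKPR1 nearer to ACOS5 and LAP5. The single TKPR2 copies were spread over a wide range, with log2 values for library 2 of 0.37 in BniB031910 and -1.79 in Bra008822.

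As summed levels, the tapetum regulators did not have the low value of the hydroxylases in library 2. The 3 copies of TDF1, which acts early in tapetum development, had 59.8, 116 and 57.7 FPKM, and each of them was highest in library 2. The 6 copies of AMS had 1439, 1409 and 1115 FPKM, and the 6 copies of MYB80 had 352, 349 and 420.0 FPKM. The 20 copies of a list of meiosis genes (ASY1, ASY3, ZYP1a, HEI10, SHOC1, SPO22, MSH4 and MSH5) summed to 88.3, 278 and 109 FPKM, and 20 of 20 were highest in library 2, which was the highest library for 41.3% of all genes tested and for 40.1% of the 342 abundant Anther genes. The meiocyte genes were thus high in the library where the varying enzymes were low, and the part of cell makeup or stage in these values was not tested.

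**Figure D3:**
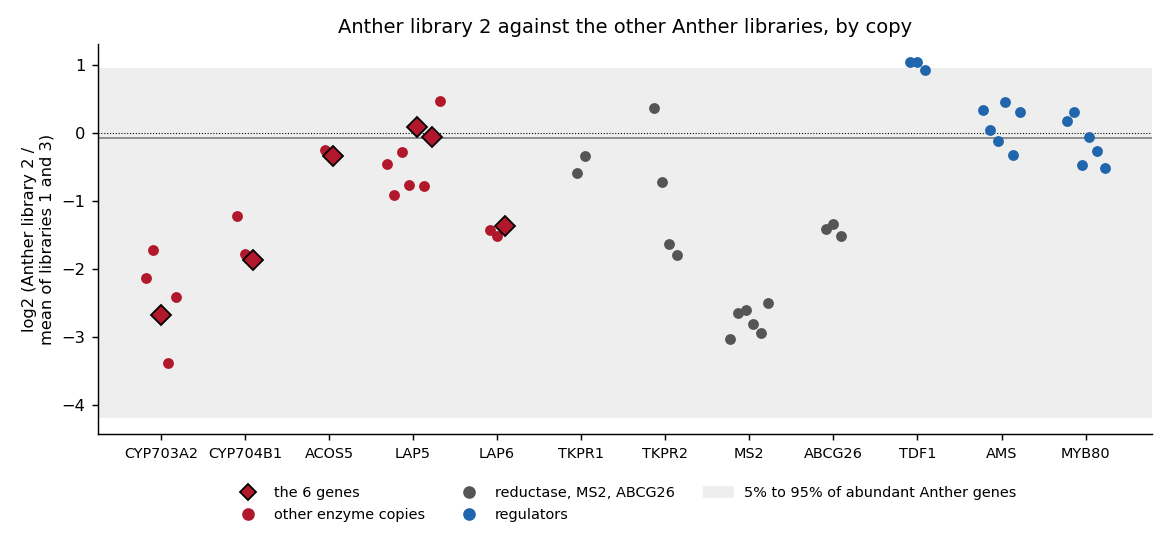
Log2 ratio of Anther library 2 to the mean of libraries 1 and 3 for each listed copy, by gene, with diamonds for the 6 genes, circles for other copies and a grey band for the middle 90% of the 342 abundant Anther genes (-4.17 to 0.94). The lowest values are those of CYP703A2 and MS2 copies, down to -3.38, the ACOS5, LAP5, AMS and MYB80 copies lie between -0.91 and 0.48, and the 3 TDF1 copies lie at 0.92 or above.

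The same 3 libraries enter every Anther mean. Without Anther library 2 the log2 fold change of Anther over Leaf was 12.25 for Bol040704, and without library 1 or 3 it was lower, down to 10.89. All 6 genes were called higher in Anther than in Ovule and in Leaf with any single library left out.

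In Ovule, library 3 was the highest for 6 of the 6 genes, for 21 of the 21 enzyme copies and for 15 of the 15 copies of TKPR1, TKPR2, MS2 and ABCG26. It was the highest for 34.4% of all genes tested, for 71.3% of the 342 abundant Anther genes and for 95.7% of those 69 among the 100 most abundant Anther genes that were also higher in Anther than in both other tissues. The 6 genes together had 2.39, 4.98 and 21.0 FPKM in Ovule libraries 1, 2 and 3. The tapetum regulator list had 0.914, 2.53 and 9.13 FPKM in the same libraries, and 11 of its 15 copies were highest in library 3. None of the 3 TDF1 copies was, with summed levels of 0.465, 0.869 and 0.681 FPKM. The ovule list had 192, 173 and 176 FPKM and the meiosis list 30.4, 30.8 and 31.1 FPKM.

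As a percent of their own Anther means, the levels in Ovule library 3 were 2.06% for Bol040704, 1.15% for Bra004386, 0.878% for Bra036646, 0.614% for Bra017681, 0.250% for Bol034656 and 1.98% for Bra017147. The median was 0.976% over the 21 enzyme copies, 1.12% over the 15 copies of TKPR1, TKPR2, MS2 and ABCG26 and 1.52% over the 342 abundant Anther genes. The 342 genes were selected as higher in Anther than in Ovule, which by itself makes this percent low, so their median is a description and no comparison. It was 0.571% over the 69 most abundant of them. In Ovule library 1, by contrast, 4 of the 6 genes had no read, Bra036646 had 0.0144% of its Anther mean, and Bra017147 had 1.32%. The part of anther or pollen RNA in these Ovule levels was not tested.

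**Figure D4:**
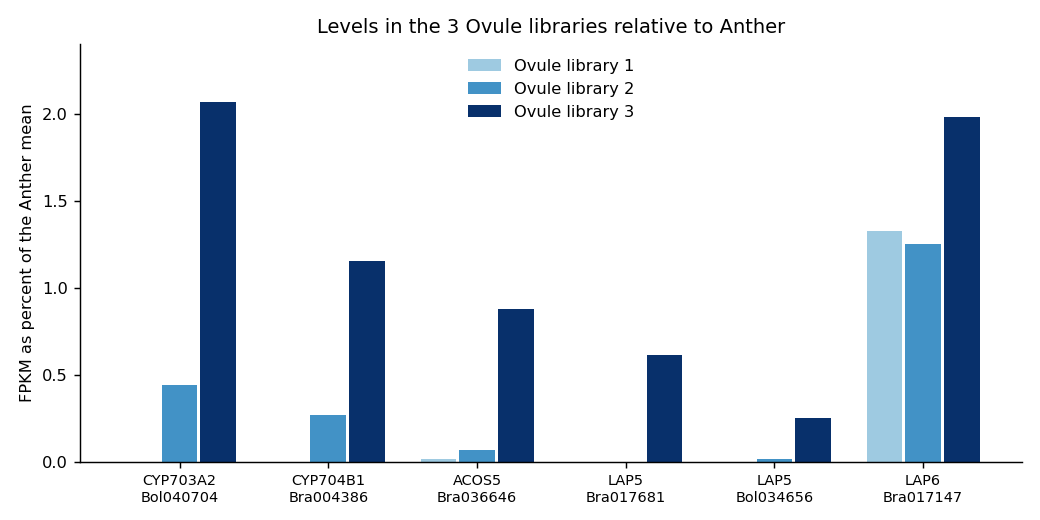
FPKM in Ovule libraries 1, 2 and 3 as a percent of the Anther mean of the same gene, as bars from 0. Library 3 is the highest for all 6 genes, from 0.250% to 2.06%, and the LAP6 copy Bra017147 is the only gene of the 6 with over 1% in each of the 3 libraries.

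The even Ovule level of Bra017147 was not shared by the other LAP6 copies, with 0.732, 0.835 and 3.96 FPKM for BniB016901 and 0, 0.329 and 1.62 FPKM for Bol025267 in the Ovule libraries. Of the 3 LAP6 copies, Bra017147 and BniB016901 were higher in Ovule than in Leaf, with log2 fold changes of 3.95 and 3.72 (SE 0.61, limma adjusted p = 0.00044), and Bol025267 was not called (2.07, limma adjusted p = 0.056). The copies called were those with the long gene models of 2685 and 2640 bases, and the part of the model length in these calls was not tested. Over all 21 enzyme copies 11 were higher in Ovule than in Leaf, none was lower and 10 did not pass, with a median log2 fold change of 2.07. Among the 15 copies of TKPR1, TKPR2, MS2 and ABCG26, 9 were higher and none lower, and among the 15 regulator copies 4 were higher and none lower. The median log2 fold changes of these lists were 2.57 and 0.79. Of all genes tested, 36.8% were higher in Ovule than in Leaf and 14.8% lower, with a median log2 fold change of 0.66. Without Ovule library 3, 5 of the 21 enzyme copies, 2 of the 15 other pathway copies and 3 of the 15 regulator copies were called. All 51 copies of the 3 lists were higher in Anther than in both other tissues, which is how the study had chosen them.

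The 6 genes made up 40.2 ± 1.62% of the summed FPKM of the 21 enzyme copies in Anther (SD, n = 3). For CYP703A2, Bol040704 was the most abundant of 5 copies, with 38.8 ± 3.85% of their FPKM, followed by Bra033272 with 29.3 ± 2.17% and BniB042784 with 24.5 ± 3.12%. The 2 remaining CYP703A2 copies, Bra032631 and Bol018458, held 3.49 ± 1.21% and 3.94 ± 1.2996%. For CYP704B1, Bra004386 held 58.3 ± 2.59%, Bol023932 29.8 ± 0.881% and BniB031958 11.9 ± 2.74%. The order of these 3 copies was the same in each Anther library, and they have the same length of 1560 bases, so reads and FPKM give the same shares.

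For ACOS5, Bra036646 held 34.0 ± 1.57% of the FPKM, and BniB001185 the rest. By reads, however, Bra036646 held 58.4%, because its gene model is longer, and the order of the copies turns with the measure. For LAP6, Bra017147 was the lowest of 3 copies by FPKM, with 28.1 ± 2.30%, behind BniB016901 with 37.9 ± 3.61% and Bol025267 with 34.1 ± 1.78%. By reads it held 35.0%, above Bol025267 with 18.7%.

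LAP5 had the most copies, 8 with the same length of 1179 bases. Bra011566 held 21.0 ± 3.90% of their FPKM, Bra017681 20.7 ± 2.17% and Bol034656 20.1 ± 3.60%, and these 3 did not differ beyond the spread between libraries. Bol034656 was the most abundant of the 8 in library 2, and Bra011566 in libraries 1 and 3. The 5 other copies held 13.8% (BniB048407) down to 3.60% (Bol013698). How reads that match several copies were treated is not given in the sources used here, so the split between near-identical copies is uncertain.

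**Figure D5:**
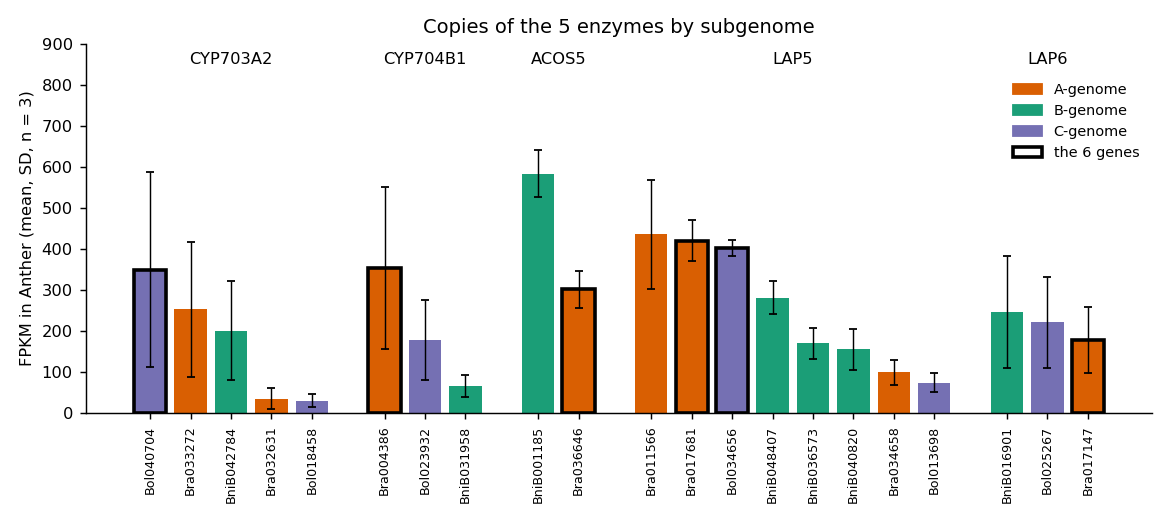
Mean FPKM in Anther of the 21 listed copies of the 5 enzymes, with the SD over the 3 libraries as error bars, colours for the subgenome and black outlines for the 6 genes. The 6 genes are the most abundant copy of CYP703A2 and CYP704B1, 2 of the 3 leading LAP5 copies, the less abundant ACOS5 copy by FPKM and the least abundant LAP6 copy by FPKM.

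By subgenome, the 8 A-genome copies held 41.2 ± 1.09% of the summed FPKM of the enzymes in Anther, the 7 B-genome copies 34.2 ± 2.101% and the 6 C-genome copies 24.6 ± 2.67% (SD, n = 3). This order was the same in all 3 Anther libraries. It counts the copies the study lists and rests on the gene lengths above. The most abundant copy by mean FPKM belonged to the C-genome for CYP703A2, to the A-genome for CYP704B1 and LAP5, and to the B-genome for ACOS5 and LAP6. For LAP5 and LAP6 the leading copy changed between libraries. The C-genome copy Bol034656 led LAP5 in Anther library 2, and the C-genome copy Bol025267 led LAP6 in Anther library 1.

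The profiles of the 6 genes over the 9 libraries were compared by Pearson's r on log2(FPKM + 0.1), as a description. The tissues set most of these values, and all genes share the same libraries. Bol040704 and Bra004386 had r = 0.997 with each other, the LAP5 copies 0.996 with each other, and Bra036646 0.996 with each LAP5 copy. Bol040704 had 0.957 with the LAP5 copy Bra017681 and 0.955 with the LAP5 copy Bol034656. Bra017147 had 0.936 to 0.960 with the other 5, a range that includes these values of Bol040704. Bra017147 was also the gene with even Ovule levels and with reads in each Leaf library.

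Among the 22227 tested genes with at least 10 FPKM on average in Anther, those nearest to the hydroxylase Bol040704 were Bol010336, a copy of MS2 (r = 0.9994), Bol042410 and BniB014178. Bol010336 had 570.4, 84.0 and 611 FPKM in the Anther libraries, with the same low library 2. Those nearest to Bra004386 were Bra003380, Bra028324 and BniB014168, which also had their lowest Anther level in library 2, at 188, 106 and 93.5 FPKM.

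The genes nearest to Bra036646 (ACOS5) were BniB008582, the MYB80 copy Bra035604 (r = 0.9991) and Bra038969. Bra035604 had 58.2, 45.1 and 70.8 FPKM in Anther, with library 2 the lowest, as in Bra036646. Those nearest to Bra017681 (LAP5) were BniB041800, Bra008329 and Bra001252, each without a read in Ovule libraries 1 and 2. The nearest to Bol034656 (LAP5) were the AMS copy Bol042692 (r = 0.9996), Bra003523 and Bra008223. Bol042692 had 341, 421 and 270.0 FPKM in Anther, with library 2 the highest and library 3 the lowest, as in Bol034656.

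The genes nearest to Bra017147 (LAP6) were BniB010855, Bol007598 and Bol045718, with r of 0.9966, 0.9962 and 0.9960. BniB010855 had 23.1, 16.0 and 26.3 FPKM in Anther and 6.26, 6.20 and 6.74 FPKM in Ovule. It was much less different between the tissues than Bra017147, since r takes no account of the size of a difference. The number of genes with r of at least 0.99 was 47 for Bol040704, 62 for Bra004386, 101 for Bra036646, 70 for Bra017681, 231 for Bol034656 and 48 for Bra017147.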

How the data were processed

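The deposited FPKM values were made by the authors, who aligned filtered reads with HISAT2 2.1.0 to the joined B. rapa, B. nigra and B. oleracea genomes and counted them per gene with HTSeq 0.6.0; StringTie 1.3.2 is named in the submitters' notes without a role. Scaling between libraries and the treatment of reads that match several genes are not given in the sources used here. FPKM steps gave whole reads for 100791 of 100804 genes (99.987%, within 0.01 read), which were used for depths, exact Poisson intervals (95%), limits of 3 reads and an alternative. The fit had limma 3.58.1 (R 4.3.3) on log2(FPKM + 0.1), a minimum of 0.5 FPKM in any 3 libraries, 1 model over 9 libraries and eBayes with trend, and was tested on simulated data. Python 3.11.15 did the rest. Named were the 6 genes, listed copies of the pathway and, for each gene, the 3 nearest profiles. The members and lists were chosen with earlier results of these data known. The alternatives used a pseudocount of 1 or 0.01, a minimum of 1 FPKM or none, median-of-ratios factors, 2 tissues only, a replicate block, treat, voom on recovered reads, each library left out and, added after seeing the data, the length of the shortest copy. No genome or annotation was used.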

Additional observations from a re-analysis of the deposited data

How the results depend on the processing

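All 6 genes stayed higher in Anther than in Ovule and in Leaf under every alternative run. The log2 fold changes of Anther over Ovule lay between 5.49 and 12.68, and no direction turned in the comparisons of Anther. For Ovule over Leaf with a library left out, the lowest log2 fold change was 0.0 for Bra017681 and 0.316 for Bol034656. Leaving out each library in turn, 9959 to 10979 genes were higher and 10123 to 10821 lower in Anther than in Ovule, 26739 to 27691 higher and 10668 to 11151 lower in Ovule than in Leaf, and 27917 to 28751 higher and 12355 to 12694 lower in Anther than in Leaf. The counts for Ovule over Leaf were less stable, with 1 to 5 of the 6 genes, 5 to 17 of the 21 enzyme copies, 2 to 13 of the 15 other pathway copies and 3 to 7 of the 15 regulator copies called higher when a library was left out. For the 6 genes this count was 1 with a pseudocount of 1, no filter, median-of-ratios factors, only 2 tissues, treat or voom on the recovered reads, which left Bra017147. For the enzyme copies it was 2 with a pseudocount of 1, 6 with no filter, 6 with median-of-ratios factors, 4 with only 2 tissues, 3 with treat and 1 with voom. For the other pathway copies it was 2, 4, 4, 2, 2 and 0 in the same order, with 1 copy lower under median-of-ratios factors and under voom, and for the regulator copies it was 0 with a pseudocount of 1, 2 with only 2 tissues, 1 with treat and 0 with voom. With a pseudocount of 0.01 the counts were 4, 16, 12 and 6. The cause of these changes was not tested.

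Over all genes, treat gave 6143 higher and 3911 lower in Anther than in Ovule, 15648 higher in Ovule than in Leaf and 18114 higher in Anther than in Leaf. With voom, 14625 genes were higher and 16000 lower in Ovule than in Leaf, and 18673 higher and 17031 lower in Anther than in Leaf. Median-of-ratios factors moved the log2 fold changes by 0.148 for Anther over Ovule, -0.657 for Ovule over Leaf and -0.51 for Anther over Leaf, which gave 15757 higher and 16125 lower, and 20200 higher and 16974 lower, for the comparisons with Leaf. They lowered the Anther mean of Bol034656 to 370.4 FPKM. With the length of the shortest copy, Bra036646 had 824 FPKM in Anther and 2.64 in Ovule, and Bra017147 403 FPKM in Anther and 6.13 in Ovule. The deviations of same-numbered libraries from their tissue means had correlations from -0.095 to 0.161. Those of differently numbered libraries had correlations from -0.122 to 0.15. These values do not settle whether libraries of the same number belong together, which is not stated. With the replicate number as a block, 10637 genes were higher and 10624 lower in Anther than in Ovule, 27592 higher and 11074 lower in Ovule than in Leaf, and 28801 higher and 12663 lower in Anther than in Leaf, and 4 of the 6 genes were higher in Ovule than in Leaf, since Bra036646 passed (limma adjusted p = 0.048).

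Depth limited the low levels. For the 6 genes 3 reads correspond to 0.0435 to 0.164 FPKM in Ovule library 1 and to 0.0665 to 0.293 FPKM in Leaf, and differences below these were not detectable. Whether the libraries of a tissue came from separate plants is not stated.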
